A study of Mus musculus with 5 samples.

Results

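The Schlafen genes encode a family of growth-regulatory and interferon-responsive proteins, and 7 of them (Slfn1, Slfn2, Slfn3, Slfn4, Slfn5, Slfn8 and Slfn9) were followed in 5 libraries that the sample labels give as CRC tumour tissue. The members were chosen by name, with their levels at 4 °C and 30 °C already known, from a table of 54113 named entries, and all 7 were among the 16133 genes that passed a filter on low counts. The tissue came from C57BL/6 mice without any further genotype in the sample labels. Of the 5 libraries, 3 were from mice kept at 30 °C and 2 from mice kept at 4 °C, both for 2 weeks. In the study, CRC tumours were grown from implanted cells of the mouse colon adenocarcinoma line MC-38, so all tumours of that model share 1 cell line. The temperature of 30 °C is thermoneutral for mice and served as the control. The study's methods give young mice of both sexes for cold exposure, adapted to a milder cold beforehand, and do not tie a sex or an age to the sequenced samples.

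Schlafen genes of the mouse fall into a short, an intermediate and a long class by the length of their proteins. All members have a core domain related to AAA ATPases and RNA-cleaving enzymes, and the long class carries in addition a part that resembles helicases. Many of them are induced by type I interferon, and the family is best known in T cells and in cells of the myeloid lineage, where members have been linked to growth arrest, quiescence and differentiation.

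The members lie side by side on mouse chromosome 11 (GRCm38), between bases 82951349 and 83215154, a stretch of 263.8 kb. In the GENCODE M21 annotation this stretch holds, besides the pseudogene Slfn10-ps and part of the antisense gene Slfn5os, 13 other genes, of which 0 are protein coding. The long members Slfn5 (chr11:82951349-82964840, plus strand), Slfn9 (chr11:82978390-82991830, minus strand) and Slfn8 (chr11:83002158-83020810, minus strand) come first. The short members Slfn2 (chr11:83065112-83070678) and Slfn1 (chr11:83116849-83122670) and the intermediate members Slfn4 (chr11:83175186-83190216) and Slfn3 (chr11:83191330-83215154) follow, all on the plus strand. The sequences just before the RefSeq transcription starts are shown so that neighbouring members can be read side by side. RefSeq (GRCm38.p6) gave 8 promoter windows for the 7 members, each from 250 bases before to 50 bases after a start. The windows of Slfn1, Slfn2, Slfn3 and Slfn4 share a string of 9 bases, ACTTCCTGG, in capitals in the 50 bases around it, each written 5′ to 3′ on the strand of the gene.
Slfn1 (chr11:83116725-83116774, plus strand): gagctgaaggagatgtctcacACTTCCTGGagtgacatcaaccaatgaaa
Slfn2 (chr11:83065036-83065085, plus strand): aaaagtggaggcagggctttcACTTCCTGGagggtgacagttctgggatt
Slfn3 (chr11:83191267-83191316, plus strand): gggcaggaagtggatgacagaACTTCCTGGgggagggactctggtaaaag
Slfn4 (chr11:83175092-83175141, plus strand): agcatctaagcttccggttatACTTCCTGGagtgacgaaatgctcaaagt

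The string was picked after the windows had been read. It was searched on both strands, and 0.843% of the 32851 RefSeq promoter windows of the same length held it. It began 74 bases before the start of Slfn1, 55 before that of Slfn2, 42 before that of Slfn3 and 73 before that of Slfn4, and it contains the core letters of sites bound by ETS factors.

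The windows of Slfn5, Slfn8 and Slfn9 instead held the core of the interferon-stimulated response element, the site through which type I interferon acts on its target genes. The core was searched as GAAANNGAAA on both strands, and it is in capitals in the next lines. In Slfn8 and Slfn9 it stands on the opposite strand and appears as its reverse complement.
Slfn5 (chr11:82951927-82951976, plus strand): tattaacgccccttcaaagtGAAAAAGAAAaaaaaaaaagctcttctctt
Slfn8 (chr11:83020829-83020878, minus strand): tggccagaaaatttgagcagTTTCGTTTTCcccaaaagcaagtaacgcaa
Slfn9 (chr11:82991846-82991895, minus strand): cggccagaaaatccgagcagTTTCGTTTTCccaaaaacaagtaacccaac

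The RefSeq start of Slfn5 lies downstream of the first base of the gene in GENCODE M21, so its stretch precedes that start but lies within the gene's annotated span. The core was present in the windows of 3 of the 7 members, in 3.44% of all RefSeq promoter windows and in 20 of the 36 genes of a list of interferon-stimulated genes that could be matched to a window. The stretches of Slfn8 and Slfn9 are near copies of each other. A second core, TTCNNNGAA, the site of STAT factors downstream of interferon gamma, was in the windows of 0 members and in 8.30% of all windows. A match of letters is a description and does not show that a factor binds there, and the absence of a match concerns only these letters in these windows.

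The libraries held 16191708 to 20320525 counts on named genes. Levels are given as counts per 1000000 (CPM) after scaling by TMM (trimmed mean of M values), which corrects for a few genes that take up a large part of a library. This matters in 30 °C replicate 2, where genes of the acinar cells of the pancreas summed to 366599 TMM-scaled CPM against 19.5 to 2592 in the other libraries. Epithelial markers, which a colon carcinoma would be labelled by, were low: Epcam stood at 7.67 to 15.5 and Krt19 at 0 to 6.65 TMM-scaled CPM, while the 10 B cell markers summed to 1370 to 3884 and Tlx1, a transcription factor of the spleen's stroma, stood at 14.2 to 28.0. These markers go against the label of colon carcinoma tissue, so the identity of the tissue is in doubt, and the libraries are named here by their temperature only. Across the 16133 genes, edgeR's quasi-likelihood test called 0 genes between 4 °C and 30 °C (0% of those tested, smallest adjusted p = 0.689), and 1090 had an unadjusted p under 0.05, of which 673 (4.17% of the genes tested) were lower and 417 (2.58%) higher at 4 °C. DESeq2 called 118, of which 92 (0.570%) were lower and 26 (0.161%) higher. The median log2 fold change of all genes was 0.006. In bulk tissue, fewer cells of a type and less RNA per cell cannot be told apart.

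Of the 7 members, Slfn4 differed most between the groups, with a level 7.8 times lower at 4 °C. Slfn3 stood 2.47 times lower and Slfn9 1.61 times lower, Slfn1, Slfn5 and Slfn8 were 1.24 to 1.33 times lower, and Slfn2 was at nearly equal levels. Thus 6 of 7 members had a lower fitted level at 4 °C, as did 49.3% of all genes tested, and the median log2 fold change of the members was -0.41. In 4 members (Slfn1, Slfn3, Slfn4 and Slfn9) the groups did not overlap, with both libraries at 4 °C below all 3 at 30 °C; 11.0% of all genes tested showed this, and 12.2% showed the opposite order. Since the members were selected on this contrast, these counts are a description and no test of a member is given.

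**Figure D1:**
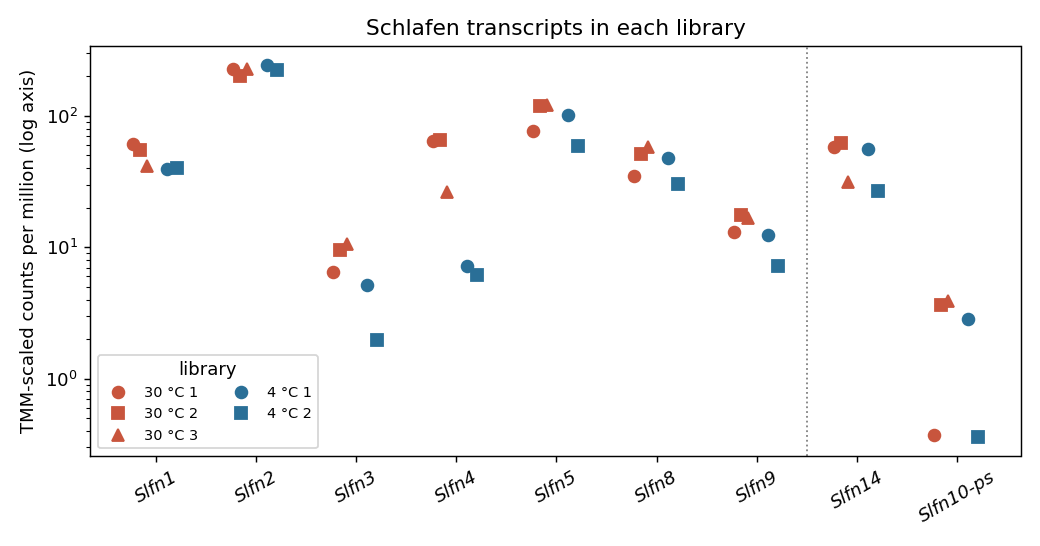
Level of each Schlafen gene in each of the 5 libraries, as TMM-scaled CPM on a log axis; red symbols are the 3 libraries at 30 °C, blue symbols the 2 at 4 °C, each symbol 1 library, and the 2 genes right of the dotted line are loci outside the 7 members. Slfn4 lies between 26.3 and 65.5 at 30 °C and at 6.11 and 7.21 at 4 °C, while Slfn2 lies between 201 and 246 in all 5 libraries.

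Slfn4, an intermediate member that is expressed in myeloid cells and is known for its regulation during macrophage activation and differentiation, was at 64.4, 65.5 and 26.3 TMM-scaled CPM at 30 °C and at 7.21 and 6.11 at 4 °C. The lowest library at 30 °C was thus 3.65 times above the highest at 4 °C. The counts behind these levels were 1211, 797 and 603 against 145 and 102. At 102 counts, the 95% exact Poisson interval ran from 4.98 to 7.42 TMM-scaled CPM, which covers counting error only. The spread within 30 °C (52.1 ± 22.3, SD, n = 3) came from replicate 3, whereas both libraries at 4 °C lay close together (6.66 ± 0.778, SD, n = 2). The fitted log2 fold change was -2.96 (SE 0.46), below that of all but 0.514% of the genes tested. Because Slfn4 is the member that carries the largest difference, the 250 bases before its start are given in full, with the shared string in capitals.
Slfn4 (chr11:83174936-83175185, plus strand): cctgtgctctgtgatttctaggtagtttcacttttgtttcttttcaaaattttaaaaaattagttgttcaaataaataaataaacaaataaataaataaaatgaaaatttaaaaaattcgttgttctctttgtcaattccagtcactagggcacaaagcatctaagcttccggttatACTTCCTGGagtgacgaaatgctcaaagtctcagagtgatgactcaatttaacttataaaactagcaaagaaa

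Slfn3, the other intermediate member, was at a low level. Its TMM-scaled CPM were 6.49, 9.61 and 10.5 at 30 °C and 5.17 and 1.98 at 4 °C, from 33 to 241 counts. The groups did not overlap, but the library at 4 °C nearest to them was only 1.26 times below the lowest at 30 °C, and the log2 fold change of -1.30 (SE 0.48) rested largely on 4 °C replicate 2. It was -0.79 without that library and -2.16 without the other one at 4 °C. Slfn3 and Slfn4 are neighbours with related sequences, yet they did not move alike. The ratio of the TMM-scaled level of Slfn4 to that of Slfn3 was 9.93, 6.81 and 2.50 at 30 °C and 1.39 and 3.09 at 4 °C.

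Of the short members, Slfn2 is required for the quiescence of T cells and monocytes, and Slfn1 was first described as a gene that restrains T cell growth. Slfn2 was at 229, 201 and 229 TMM-scaled CPM at 30 °C and at 246 and 223 at 4 °C, and the groups overlapped. Its log2 fold change was 0.09 (SE 0.16), and after TMM scaling it was among the most even of all genes. The root-mean-square deviation of its log2 CPM from its mean over the 5 libraries was 0.09, and only 4.69% of the genes tested varied less. In CPM without TMM scaling Slfn2 was less even, at 247, 148 and 258 at 30 °C and at 266 and 230 at 4 °C. Slfn1 stood at 60.8, 55.0 and 41.4 at 30 °C and at 39.3 and 40.0 at 4 °C. The gap between the groups was narrow, with the lowest library at 30 °C 1.03 times above the highest at 4 °C, and in CPM without TMM scaling the groups overlapped. The log2 fold change of Slfn1 was -0.40 (SE 0.21).

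The long members were lowest in the same library, 4 °C replicate 2, as were Slfn3 and Slfn4. Slfn5, which acts in the nucleus and restrains cell growth and interferon responses in several cell types, stood at 76.6, 119 and 122 TMM-scaled CPM at 30 °C and at 101 and 58.8 at 4 °C. Slfn8, which takes part in T cell growth control, stood at 34.8, 51.5 and 58.0 against 47.4 and 30.4. In both genes the groups overlapped, since 4 °C replicate 1 lay above 30 °C replicate 1. Slfn9, a close relative of Slfn8, stood at 13.1, 17.7 and 16.8 against 12.5 and 7.19, with a gap between the groups of 1.05 times that was lost in CPM without TMM scaling. Log2 fold changes were -0.41 (SE 0.31) for Slfn5, -0.31 (SE 0.30) for Slfn8 and -0.68 (SE 0.31) for Slfn9. Without 4 °C replicate 2 those of Slfn5, Slfn8 and Slfn9 were -0.09, -0.03 and -0.36, and without 4 °C replicate 1 they were -0.85, -0.66 and -1.14.

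**Figure D2:**
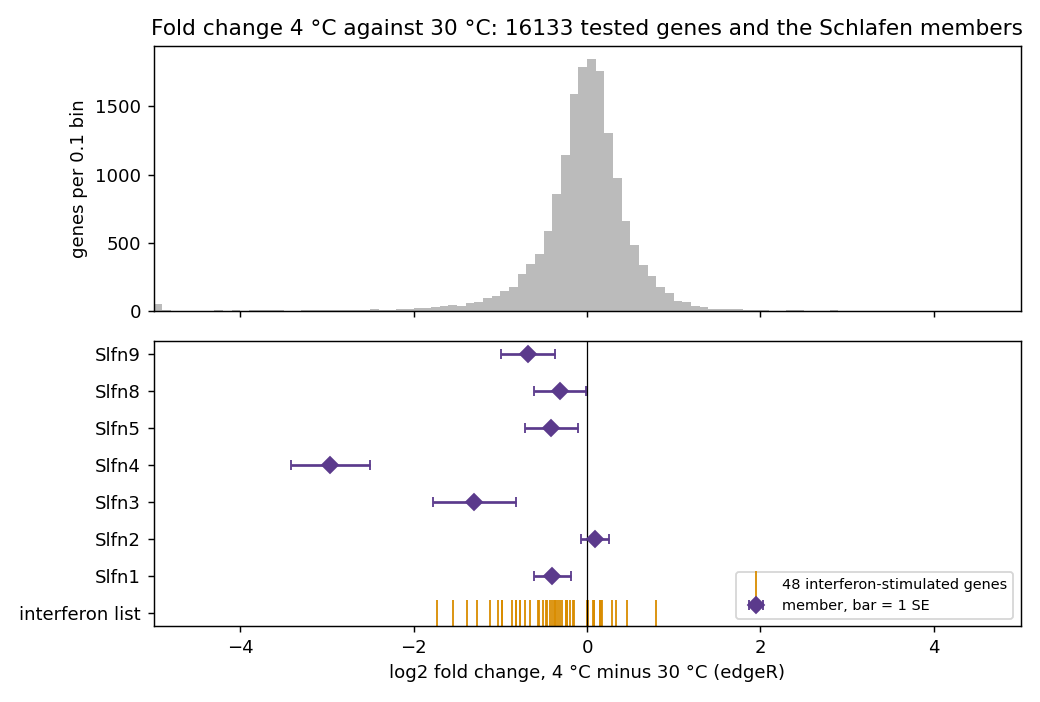
Upper panel, number of genes per 0.1 bin of log2 fold change (4 °C minus 30 °C) over all 16133 genes tested, with values beyond the axis placed in the outermost bins; lower panel, fitted log2 fold change of each member (diamond, bar of 1 SE) and of 48 interferon-stimulated genes (ticks). Slfn4 at -2.96 lies in the left tail, Slfn3 at -1.30 beside it, and the other members between -0.68 and 0.09 within the bulk of all genes.

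Across the 5 libraries the members differed widely in how much they varied. The root-mean-square deviation of log2 CPM was 1.47 for Slfn4 and 0.84 for Slfn3, more than in 98.7% and 94.0% of the genes tested, then 0.46 for Slfn9, 0.40 for Slfn5, 0.35 for Slfn8, 0.26 for Slfn1 and 0.09 for Slfn2. The long members lay close together: the root-mean-square distance between their centred log2 CPM was 0.08 for Slfn5 and Slfn8, 0.18 for Slfn5 and Slfn9 and 0.24 for Slfn8 and Slfn9. Slfn3 was 0.39 from Slfn9 and 0.51 from Slfn5, against 0.77, 0.87 and 1.01 from Slfn1, Slfn2 and Slfn4. Genes that vary little lie close by this measure, and how many of all genes lie as close was not counted. By the same measure Slfn4 was 1.01 to 1.52 away from every other member. These are distances over 5 libraries that share their scaling, and Slfn8 and Slfn9 also share sequence. Distances among the 4 genes with the shared string ACTTCCTGG ran from 0.32 between Slfn1 and Slfn2 to 1.52 between Slfn2 and Slfn4.

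**Figure D3:**
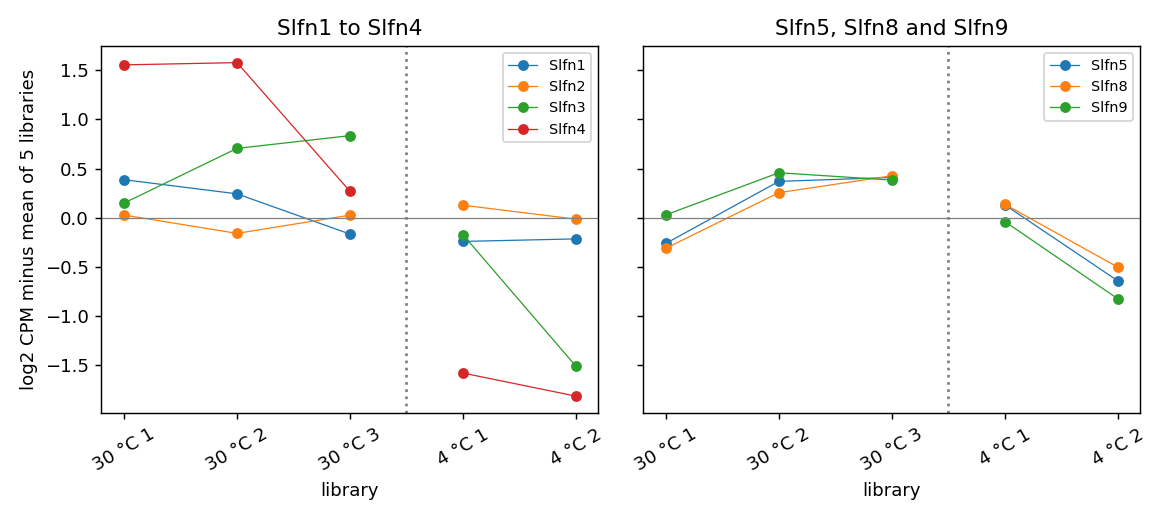
Log2 CPM of each member minus its mean over the 5 libraries, with Slfn1 to Slfn4 on the left and Slfn5, Slfn8 and Slfn9 on the right; each point is 1 library, the dotted line separates the temperatures, and the thin lines join the points of a gene for reading only, since replicates have no order. Slfn5, Slfn8 and Slfn9 are all lowest in 4 °C replicate 2, at -0.64, -0.51 and -0.83, and Slfn4 is low in both libraries at 4 °C, at -1.58 and -1.82.

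For comparison between genes, levels were divided by the length of the joined exons. On this scale (TMM-scaled CPM per kb, mean ± SD over 5 libraries) Slfn2 was highest at 136 ± 9.64, followed by Slfn1 at 25.4 ± 5.33, Slfn5 at 15.1 ± 4.32, Slfn8 at 10.9 ± 2.83, Slfn4 at 8.55 ± 7.43, Slfn9 at 2.25 ± 0.696 and Slfn3 at 1.98 ± 1.01. Slfn2 and Slfn1 stood above each lower-ranked neighbour in every library, with ranges that did not overlap (121 to 148 for Slfn2 and 21.1 to 32.6 for Slfn1, against 9.30 to 19.3 for Slfn5). Slfn5 lay above Slfn8 in each library although their ranges overlapped, while Slfn9 and Slfn3 could not be ordered within their spread. The place of Slfn4 varied between the libraries, and rank 5 occurred at both temperatures. At 30 °C it stood at 16.3, 16.5 and 6.64 TMM-scaled CPM per kb, at rank 3, 4 and 5 of the 7 members, and at 4 °C at 1.82 and 1.54, at rank 6 and 5.

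As shares of the family per kb, Slfn4 held 7.69%, 8.09% and 3.23% at 30 °C and 0.902% and 0.879% at 4 °C. Slfn2 held 65.2%, 59.3% and 66.9% at 30 °C and 73.2% and 76.3% at 4 °C, the larger shares in the cold going with smaller sums of the other members. Without Slfn2, the members summed to 256, 318 and 275 TMM-scaled CPM at 30 °C and to 212 and 144 at 4 °C. The sum of all 7 was 486, 520 and 504 against 458 and 367.

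**Figure D4:**
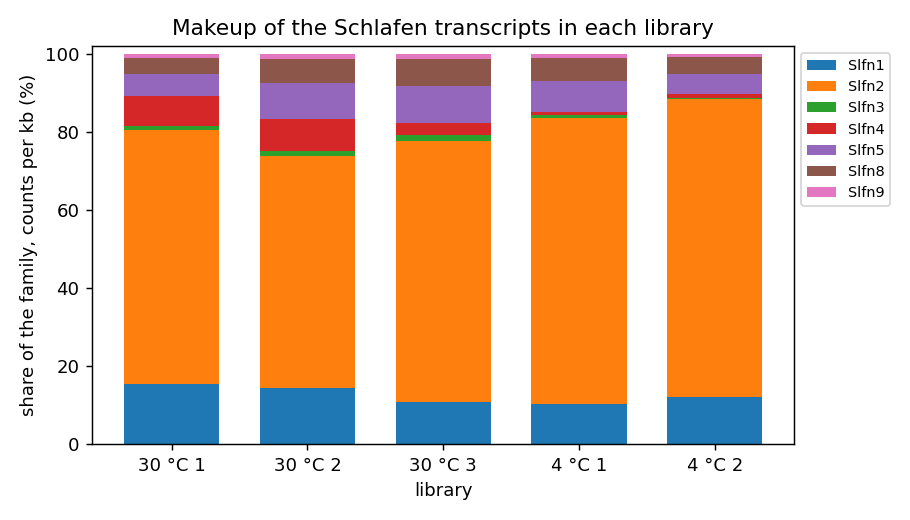
Share of each member in the summed counts per kb of the 7 members, in percent, with 1 stacked bar per library. Slfn2 makes up 59.3% to 76.3% of every bar, and the band of Slfn4 is 3.23% to 8.09% at 30 °C and 0.902% and 0.879% at 4 °C.

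Closely related sequences can exchange reads, and how the authors handled multi-mapping reads is not given in the sources used here. Of all 50-base words in the annotated transcripts of Slfn4, 11.3% also occur in another gene, mostly Slfn3 (6.28%). For Slfn3 the share was 16%, for Slfn8 14.6%, for Slfn9 11.9%, for Slfn5 11.1%, for Slfn2 4.27% and for Slfn1 0.606%. With words of 100 bases the shares fell to 0.271% for Slfn4 and 2.92% for Slfn3. The level of each member, Slfn4 included, is uncertain for this reason, and its own share of words does not bound the error. Slfn3, at 33 to 241 counts, shares words with Slfn4, at 102 to 1211 counts. A small part of the counts of Slfn4 could thus be a larger part of those of Slfn3, and this was not tested. The pseudogene Slfn10-ps, which shares words with Slfn8 and Slfn9, had 7, 44 and 89 counts at 30 °C and 57 and 6 at 4 °C, so it was lowest in the 2 libraries in which Slfn5 and Slfn8 were lowest. Slfn5 overlaps the antisense gene Slfn5os over 559 bases of exon. Slfn5os had 0 or 1 count per library, and without a stated strand setting reads of both cannot be told apart.

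Outside the 7 members, Slfn14, a ribosome-associated endoribonuclease known from platelets and red cell precursors, lies next to Slfn3 (chr11:83275110-83286726, minus strand). It stood at 58.1, 61.8 and 31.4 TMM-scaled CPM at 30 °C and at 55.5 and 27.0 at 4 °C, and the groups overlapped. Its log2 fold change was -0.29 (SE 0.41). Slfnl1, a Schlafen-like gene on chromosome 4, had 0 counts in all 5 libraries, where 3 counts equal 0.148 to 0.185 CPM.

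The genes whose centred log2 CPM were nearest to those of Slfn4 over the 5 libraries were Abca13, a lipid transporter (distance 0.38), Lnx1, a ubiquitin ligase (0.47), Mgam, an enzyme of starch digestion (0.53), the unnamed transcript Gm43181 (0.55) and Nudt12, which hydrolyses NADH (0.57). Abca13 stood at 15.5, 14.5 and 6.07 TMM-scaled CPM at 30 °C and at 2.74 and 2.40 at 4 °C, so that replicate 3 was the lowest at 30 °C, as for Slfn4. Lnx1 and Gm43181 had as few as 1 and 2 counts in a library. Nearest to Slfn3 was Syne1, which anchors nuclei to the cytoskeleton (0.13), at 60.4, 91.2 and 86.4 against 56.4 and 20.8, followed by Zfp993, Gm42549, Gm37527 and Gm6201 at distances of 0.14 to 0.21.

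Since most Schlafen genes respond to interferon, other genes of that response were read from the same fit. Of 49 interferon-stimulated genes 48 were tested and 0 were called, by edgeR, with 14 lower and 1 higher at an unadjusted p under 0.05, while DESeq2 called 8, all lower at 4 °C, where 4.17% and 2.58% of all genes tested were lower and higher at that p and DESeq2 called 0.570% as lower. Of the 48, 36 had a lower fitted level at 4 °C, as did 49.3% of all genes tested, and 12 a higher one. The median log2 fold change of the 48 was -0.36. In 18 the libraries at 4 °C lay below all at 30 °C and in 3 above, where 11.0% and 12.2% of all genes tested did. The smallest p-values belonged to Oas2, Ifi44, Oasl2, Oas3 and Oas1a, of which all but Ifi44 are members of the oligoadenylate synthetase family that senses double-stranded RNA. Oas2 stood at 26.3, 22.2 and 17.5 TMM-scaled CPM at 30 °C and at 7.91 and 7.19 at 4 °C, a log2 fold change of -1.54 (SE 0.25, edgeR adjusted p = 0.69). This list overlaps no member.

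The interferons themselves were hardly detected: of 20 ligand genes 15 had 0 counts in every library and only Ifng was tested, at 0.905, 1.07 and 0.961 TMM-scaled CPM at 30 °C and 0.995 and 1.26 at 4 °C. Among 26 genes of interferon receptors, sensors and their transcription factors 0 were called by edgeR. DESeq2 called 1 (Irf7) as lower, against 0.570% of all genes tested. At an unadjusted edgeR p under 0.05, 2 were lower and 1 higher, against 4.17% and 2.58% of all genes tested. In this list 10 had a lower fitted level at 4 °C, as did 49.3% of all genes tested, and 16 a higher one. The median log2 fold change of the list was 0.07. Irf7, the factor that amplifies the type I response, stood at 190, 241 and 184 at 30 °C and at 100 and 94.5 at 4 °C, with a log2 fold change of -1.07 (SE 0.19, edgeR adjusted p = 0.69). Irf3, which starts that response, had a log2 fold change of 0.51 (SE 0.18, edgeR adjusted p = 0.71), at 56.5, 52.4 and 57.3 against 68.8 and 88.6. Of 12 genes of lymphocyte quiescence, among them Klf2, Tcf7, Btg1, Ccr7 and Il7r, 0 were called by edgeR or DESeq2. At an unadjusted edgeR p under 0.05, 4 were higher, against 2.58% of all genes tested. A higher fitted level at 4 °C was found in 10 and a lower one in 2, where 49.3% of all genes tested were lower. The median log2 fold change was 0.46, whereas Slfn2, the quiescence gene of the family, was at 0.09.

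Markers of the cell types that express Schlafen genes moved between the libraries as well. All 15 neutrophil markers had a lower fitted level at 4 °C, as did 49.3% of all genes tested. The median log2 fold change of the 15 was -1.18, and their TMM-scaled CPM summed to 12974, 8792 and 3222 at 30 °C and to 2619 and 4210 at 4 °C. By edgeR 0 were called, with 5 of 15 lower at an unadjusted p under 0.05 (4.17% of all genes), and DESeq2 called 1 (Csf3r) as lower (0.570% of all genes). The groups overlapped in this sum, since 30 °C replicate 3 lay below 4 °C replicate 2. In 4 of the 15 (Csf3r, Mmp8, Cxcr2 and Mmp9) both libraries at 4 °C lay below all at 30 °C (11.0% of all genes). In the other neutrophil markers the groups overlapped. The sums of 13 monocyte and macrophage markers overlapped too, at 3979, 3372 and 3208 against 3261 and 4184. In 4 of the 13 (F13a1, Ly6c2, Ccr2 and Vcan) both libraries at 4 °C lay below all at 30 °C (11.0% of all genes). In 1 they lay above (12.2% of all genes). Of the 13, 8 had a lower fitted level at 4 °C (49.3% of all genes), with a median of -0.37 over the list. By edgeR 0 were called, with 4 of 13 lower at an unadjusted p under 0.05 (4.17% of all genes), and DESeq2 called 1 (F13a1) as lower (0.570% of all genes). Vcan had the largest difference of this list (log2 fold change -2.38, SE 0.86), at 38.4, 18.6 and 4.89 against 4.77 and 3.12. The smallest p-values belonged to F13a1 at 101, 100 and 34.9 against 23.6 and 26.7 and to Ly6c2 at 252, 260 and 160 against 113 and 143. No gene of these lists was at 0 in every library. The part of myeloid cell content in the level of Slfn4 was not tested.

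Markers of lymphocytes stood the other way. All 12 T cell markers had a higher fitted level at 4 °C (median log2 fold change 0.83), with sums of 337, 394 and 535 at 30 °C and 736 and 725 at 4 °C, and so did all 10 B cell markers (median 0.69), with sums of 1370, 1946 and 3428 against 3884 and 3401, which overlapped. Of all genes tested, 49.3% had a lower fitted level. By edgeR 0 were called in both lists, with 9 of 12 T cell and 3 of 10 B cell markers higher at an unadjusted p under 0.05 (2.58% of all genes). DESeq2 called 5 T cell markers as higher (0.161% of all genes) and 0 B cell markers. Slfn1 and Slfn2 are known from T cells, and they stood 1.32 times lower and nearly level in the same libraries. Of 9 erythroblast markers 6 were lower at 4 °C (median -0.54) and of 8 megakaryocyte markers 7 (median -0.07), where 49.3% of all genes tested were. The 11 markers of spleen stroma had a median of 0.40 and the 9 epithelial markers tested one of -0.60. The epithelial list summed to 58.9, 173 and 20.6 at 30 °C and to 19.6 and 92.6 at 4 °C. These sums overlapped and were highest in 30 °C replicate 2. All 23 acinar markers tested had a lower fitted level at 4 °C. The acinar list summed to 77.2, 366599 and 27.7 at 30 °C and to 19.5 and 2592 at 4 °C. The sum was thus by far highest in 30 °C replicate 2 and next highest in 4 °C replicate 2. In these lists edgeR called 0 genes. At an unadjusted edgeR p under 0.05, 2 erythroblast markers were lower at 4 °C (4.17% of all genes) and 4 stromal markers higher (2.58%), with 0 of the others. DESeq2 called 1 stromal marker (Cxcl13) as higher (0.161% of all genes) and 0 of the others. Without 30 °C replicate 2 the log2 fold changes of the members stayed on the same side of 0, 6 of 7 below it. The part of these cell types in the levels of the members was not tested.

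**Figure D5:**
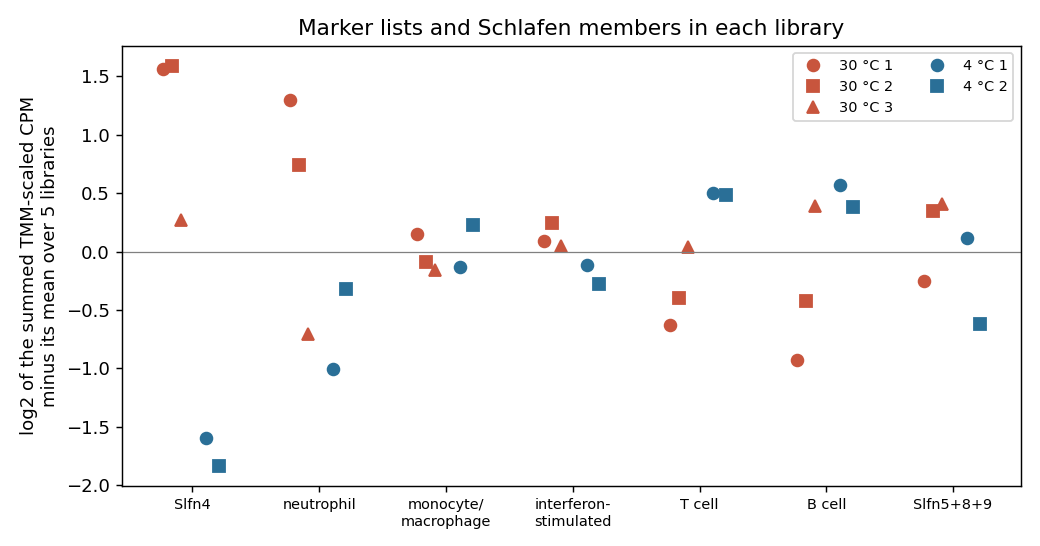
Log2 of the summed TMM-scaled CPM of Slfn4, of 5 gene lists and of Slfn5, Slfn8 and Slfn9 together, each minus its mean over the 5 libraries; red symbols are the libraries at 30 °C and blue symbols those at 4 °C. Slfn4 and the interferon list are lower and the T cell list is higher in both libraries at 4 °C than in all at 30 °C, while the neutrophil, monocyte and B cell sums and the sum of the long members overlap between them.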

How the data were processed

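The authors aligned the reads of 5 libraries labelled as tumour tissue and counted them per gene with featureCounts on Gencode vM19, and the deposited values are raw counts. The submitters' processing notes list fastp, HISAT, RSEM and GRCm38, without roles. Unnamed entries (0.0101% to 0.0170% of counts) were left out, and of 97 symbols with several entries the highest carried the name. Counts were filtered with filterByExpr, scaled by TMM and compared by the quasi-likelihood test of edgeR 4.0.16 (R 4.3.3, robust, no covariate), with calls at a Benjamini-Hochberg adjusted p under 0.05. DESeq2 1.42.0, other scalings and filters, a replicate block and leaving out each library were alternatives. Distances used log2 CPM with a prior count of 2. Exon lengths and 50-base words came from GENCODE M21, promoters from RefSeq. The study calls the samples biological samples and does not say whether each came from a separate animal, so p-values measure the spread between these libraries.

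The members and lists were chosen with earlier results of these data known. Named genes are the members, the other Schlafen loci, of each list the 5 genes with the smallest p, and for the 2 most variable members the 5 genes nearest in profile. From the monocyte list, Vcan, F13a1 and Ly6c2 of its 5 are given with values. The lymphocyte, erythroid, megakaryocyte, stromal, acinar and epithelial lists are given mainly as counts and sums.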

Additional observations from a re-analysis of the deposited data

How the results depend on the processing

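Over 14 alternatives, the direction of every member's log2 fold change was kept in all 98 values, and 96 of them moved by less than the spread between replicates. The exceptions were Slfn3 at -2.16 and Slfn9 at -1.14 without 4 °C replicate 1. Slfn4 ranged from -3.29 to -2.78 and Slfn2 from 0.02 to 0.19. Members with a lower fitted level numbered 6 in every alternative. Their median ranged from -0.85 to -0.36 with 1 library left out, and was -0.85 without 4 °C replicate 1. The members whose groups did not overlap numbered 4 with upper-quartile scaling (3 lower at 4 °C, with Slfn1 overlapping, and Slfn2 higher), 5 without 4 °C replicate 2 (4 lower, and Slfn2 higher), 6 without 30 °C replicate 1 or 4 °C replicate 1, and 2 (Slfn3 and Slfn4) in CPM with no scaling factor, an alternative added after seeing the data. Genes called rose from 0 to 118 with DESeq2 (92 lower, 26 higher at 4 °C) and to 8 in CPM with no scaling factor, and stayed at 0 with any library left out, where the fit with 1 library at 4 °C takes its spread from the 30 °C libraries. In the interferon list 8 genes were called with DESeq2, and its median, -0.52 to -0.29 with 1 library left out, was -0.25 with no scaling factor. With the replicate number as a block 44 genes were called (43 lower, 1 higher). The labels give these numbers no meaning, and the samples were not taken as pairs. Deviations of same-numbered libraries from their group means correlated at -0.255 and 0.259. These values cannot decide pairing, because the deviations of the 2 libraries at 4 °C are exact opposites. What caused these shifts was not tested. With the longest transcript as length, 2 members (Slfn3 and Slfn9) exchanged ranks. With a prior count of 0.5, 3 of the 5 genes nearest to Slfn4 were shared. Depth limits Lnx1 and Gm43181, with 1 and 2 counts in a library, and Slfn3, with 33.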
